A study of Gallus gallus with 24 samples.

Results

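The nuclear genes of oxidative phosphorylation (OXPHOS) were followed in abdominal fat of 2 chicken lines bred apart for growth. They were taken from the array's platform annotation by symbol: SDHA to SDHD, CYC1, CYCS, and every symbol that began with NDUFA, NDUFB, NDUFC, NDUFS, NDUFV, UQCR, COX4I, COX5, COX6, COX7, COX8 or ATP5. Of 6428 symbols on the array 45 matched, on 67 spots, and 44 of them, on 62 spots, were among the 6184 genes tested. NDUFB10 was measured on 16 of 24 arrays and was not tested. The 44 were 18 symbols of complex I, 2 of complex II, 6 of complex III, cytochrome c, 5 of complex IV, 10 of complex V and 2 assembly factors of complex I, NDUFAF1 and NDUFAF2, which the letters NDUFA brought in. No spot was listed as SDHB, SDHC or CYC1, or under a symbol that began with COX5 or COX8.

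The birds were cockerels of a high-growth line (HG), set against cockerels of a low-growth line (LG), both bred from meat-type Bresse-Pile chickens by divergent selection on juvenile and adult body weight. RNA of abdominal fat was measured at 6 ages, every 2 wk from 1 to 11 wk, on 24 spotted cDNA arrays. Each array paired an HG with an LG cockerel matched for age, and with 4 arrays per age 48 birds were used. All birds were fed freely, but the lines were housed apart and the LG birds received crushed feed until 3 wk, so early housing and line cannot be told apart. On arrays 1 and 3 of each age the LG bird carried the red dye and on arrays 2 and 4 the HG bird.

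Each measurement was the HG over LG ratio of a spot on the log2 scale, relative to the array's median spot, and a positive value means a higher signal in HG. That red stood over green in the deposited ratios was not written beside them and is the likely reading, since the scanner software divides red by green by default and the labels give the dye of each line. Every sign rests on it, and with green over red each sign, and each count above or below 0, would be turned. Gene names rest on spot identifiers whose last 2 numbers were exchanged between the annotation and the value table. With them exchanged, spots named for the same gene correlated at a mean of 0.0442 over 5150 pairs of spots across the arrays, against 0.0037 as given, so that agreement between spots of a gene was low under either reading. A ratio gives no level: how strongly the fat expressed a gene, and how it changed with age itself, could not be read from it, and neither could the level of fat cell markers. The fat was bulk tissue, in which fewer cells of a type and less RNA per cell cannot be told apart. The genotype effect is the mean of the 6 age coefficients of limma's fit, with a coefficient for the dye, and p-values were adjusted over all 6184 genes.

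Oxidative phosphorylation takes place on the inner mitochondrial membrane. Complexes I and II pass electrons from NADH and succinate to ubiquinone, complex III passes them to cytochrome c, and complex IV hands them to oxygen, while complex V, the ATP synthase, makes ATP from the proton gradient that complexes I, III and IV build. White fat cells hold few mitochondria and store most of their fuel, and the chain there serves ATP for lipid synthesis and the reoxidation of NADH. Most subunits are encoded in the nucleus, and a small core in mitochondrial DNA, which was not analysed here: none of its symbols named a spot in the annotation used, and 8599 of 19200 spots had no name in it.

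No sequence of the spotted clones was used here. The only sequences at hand for these genes were the PCR primers of COX7A2L. The study used this gene as a reference in quantitative PCR, and the primers are shown because the gene's difference between the lines bears on that use.
COX7A2L forward: gccggtggatcgtagga
COX7A2L reverse: cgtgaagccgttgaacttgtag
The gene lies on chromosome 3 in the RefSeq gene table, and its array values are given with complex IV.

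UQCRB, a small subunit of complex III that binds near a ubiquinone site, was higher in HG. At 1 wk its log2 ratios on arrays 1 to 4 were 0.62, 0.79, 0.21 and 0.24, at 3 wk 0.37, 0.77, 0.55 and 0.22, and at 5 wk 1.00, 0.91, 0.64 and 0.46. At 7 wk they were 0.37, 1.02, 1.32 and 0.91, at 9 wk 1.00, 0.54, 0.27 and 0.83, and at 11 wk -0.32, 0.81, 0.29 and 0.44. HG was thus higher on 23 of 24 arrays, and array 1 of 11 wk was the sole exception. Over the 6 ages the effect was 0.59 (SE 0.068, 95% interval 0.45 to 0.74), or 1.51-fold, with an adjusted p of 4.16e-05 in limma's test. The residual SD of UQCRB was 0.338, close to the median of 0.33 over all genes. Without array 1 of 11 wk the effect was 0.63. UQCRB was the sole gene of the 44 called at an adjusted p under 0.05, where 2.04% of all genes were called, with 0.922% higher and 1.12% lower in HG. Those were 57 genes higher and 69 lower in HG, and 63 higher and 32 lower where the arrays were not centred.

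The difference in UQCRB appeared in both dye orientations. On the 12 arrays with HG in red the ratio ran from 0.22 to 1.02 with a median of 0.78, and on the 12 with LG in red from -0.32 to 1.32 with a median of 0.46. Its coefficient was positive at each age, at 0.46, 0.48, 0.75, 0.90, 0.66 and 0.30 from 1 to 11 wk (SE 0.17 each). Taken alone, the effect passed the test at 7 wk (1.87-fold, adjusted p = 0.0192) and came next at 5 wk (1.69-fold, adjusted p = 0.0549). At 7 wk 0.226% of all genes were called, 0.146% higher and 0.0809% lower in HG. Without array 2, 3 or 4 of 7 wk the 7 wk effect was 0.89, 0.73 or 0.93 and no longer passed (adjusted p = 0.187, 0.229 and 0.119). It also did not pass with the median of each array block removed (0.80, adjusted p = 0.0589) or the mean of surrounding spots removed (0.75, adjusted p = 0.116), both chosen after seeing the data. The 5 wk effect passed without array 4 of 5 wk (0.88, adjusted p = 0.0383), and also, at an unaltered 0.75, without array 1 or 3 of 7 wk, array 1 of 9 wk, or array 1 or 2 of 11 wk (adjusted p = 0.0364 to 0.0488). It passed as well with arrays scaled to the same spread (0.90, adjusted p = 0.00747), probes measured on all 24 arrays (0.75, adjusted p = 0.0493) or array weights (0.74, adjusted p = 0.0104). The effects of the 6 ages were not shown to differ from each other (interaction F = 1.75, adjusted p = 1), and the linear trend was -0.001 per wk with an adjusted p of 0.999.

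UQCRB was represented by a single spot, so no other clone of the gene was at hand to set beside it. The 8 spots around it on the array had mean log2 ratios between -0.17 and 0.07, against 0.59 for the UQCRB spot. UQCRB lies on chromosome 2 in the RefSeq gene table, where the 5 nearest measured genes after it, MTERF3, PTDSS1, SDC2, CPQ and RPL30, which lay 1 to 8 protein-coding genes away, had effects from -0.02 to 0.08 and adjusted p-values from 0.813 to 0.944. Of the 5 nearest before it, which lay 3 to 14 protein-coding genes away, PLEKHF2, TP53INP1, DPY19L4 and FSBP lay between 0.03 and 0.12, and INTS8, a subunit of the Integrator complex, was lower in HG (-0.15, SE 0.03, adjusted p = 0.00959). None of these spots and genes had a mean or effect above 0.12, and their difference from UQCRB was not tested. After age and dye were taken out, its residuals had a median correlation of 0.083 with those of 41 other OXPHOS genes over 24 arrays, which share dye and array effects.

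**Figure D1:**
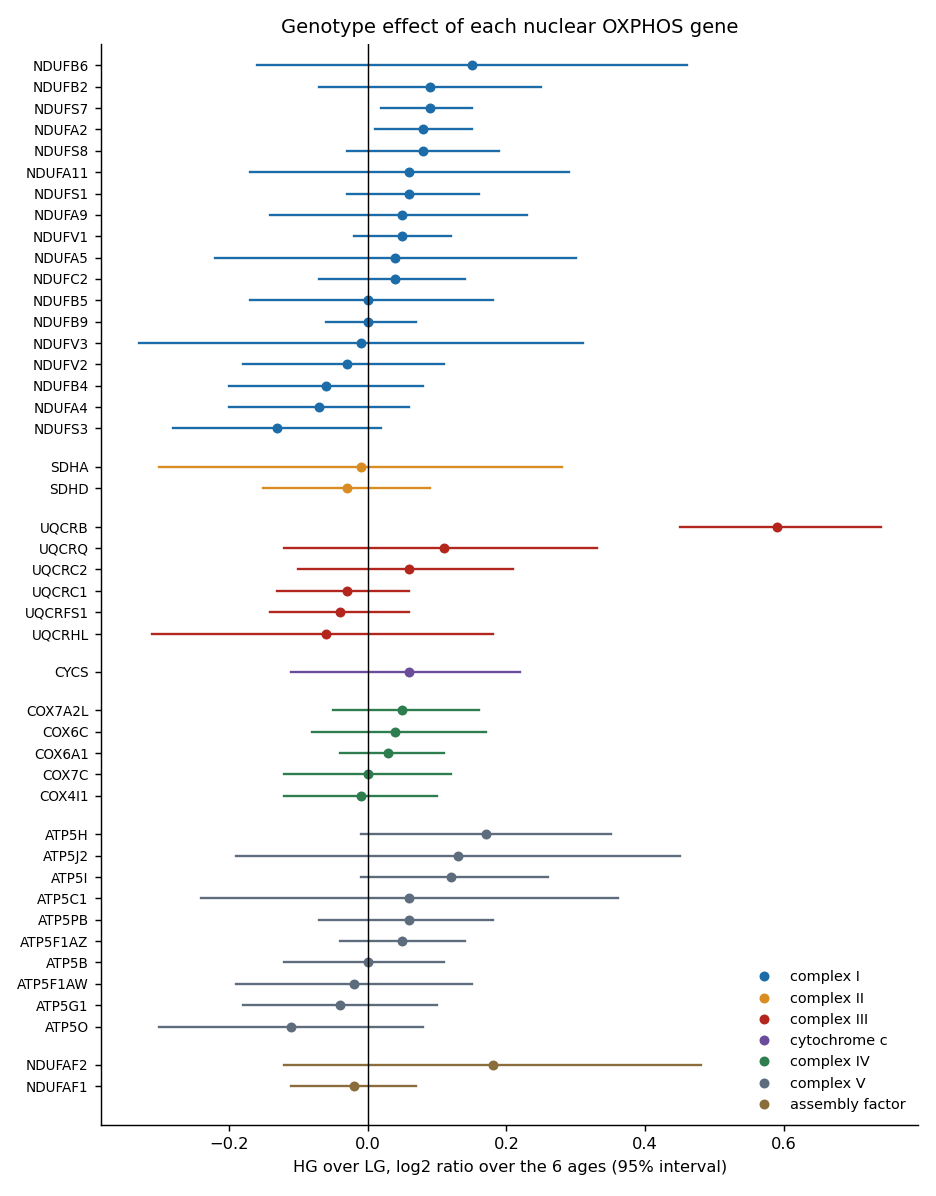
Genotype effect of each of the 44 tested genes as the log2 ratio of HG over LG over the 6 ages (points) with its 95% interval (lines), grouped by complex. UQCRB lies at 0.59, and all other genes lie between -0.13 and 0.18.

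None of the other complex III genes was called. The core proteins UQCRC1 and UQCRC2, large proteins on the matrix side of the complex, had effects of -0.03 (SE 0.044) and 0.06 (SE 0.075). UQCRFS1, the Rieske iron-sulfur protein that hands electrons on to cytochrome c1, was at -0.04 (SE 0.047) and UQCRQ, another small subunit, at 0.11 (SE 0.108). UQCRHL, listed as a hinge-protein-like gene, had the lowest effect at -0.06 (SE 0.119, adjusted p = 0.872), and its ratios ran from -1.49 to 1.46 over the arrays with a median of -0.05. Of these 5 genes 2 were above 0 and 3 below, with a median of -0.03, and their 95% intervals all stayed below 0.45, the lower end for UQCRB. On single arrays their median ran from -0.65 to 0.24 and was above 0 on 12 of 24. The difference between UQCRB and each of them was not itself tested.

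**Figure D2:**
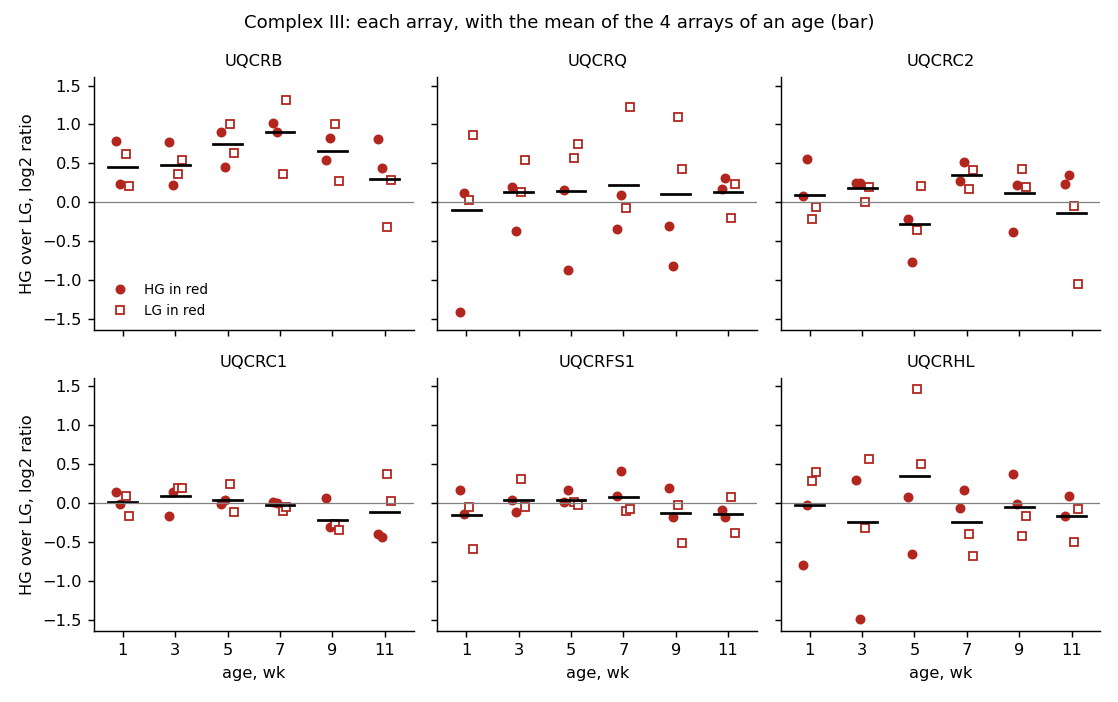
Log2 ratio of HG over LG on each array for the 6 complex III genes by age in wk, with filled circles for HG in red, open squares for LG in red and a bar for the mean of the 4 arrays. UQCRB lies above 0 on all arrays but array 1 of 11 wk, while the others scatter on both sides of 0.

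Complex I, the entry point for NADH, gave 13 genes above 0 and 5 below, with a median of 0.04 and no call. NDUFB6, an accessory subunit of the membrane arm, had the highest effect (0.15, SE 0.147, adjusted p = 0.756), with ratios from -0.77 to 1.61 and HG higher on 11 of 24 arrays. NDUFS3, a core subunit of the matrix arm, had the lowest (-0.13, SE 0.071, adjusted p = 0.5), with ratios from -1.44 to 1.11. For both, the arrays lay widely on either side of 0. NDUFS7, which carries the last iron-sulfur cluster before ubiquinone, was at 0.09 (SE 0.031, adjusted p = 0.208, unadjusted p = 0.0116, n = 24 arrays), and 18 of 24 arrays were above 0. That value was the mean of 3 spots with effects of 0.21, 0.02 and 0.03, whose correlations ran from -0.60 to 0.07. NDUFA2, an accessory subunit of the matrix arm, was at 0.08 (SE 0.033, adjusted p = 0.332, unadjusted p = 0.0313, n = 24 arrays). With UQCRB these were the 3 genes of 44 with an unadjusted p under 0.05, a level that 12.2% of all genes reached. The other electron-carrying core subunits stood close to 0, at 0.05 for NDUFV1, which binds NADH, -0.03 for NDUFV2, 0.06 for NDUFS1 and 0.08 for NDUFS8. Of the accessory genes, NDUFB2 (0.09), NDUFA11 (0.06), NDUFA9 (0.05), NDUFA5 (0.04), NDUFC2 (0.04), NDUFB5 (0.00), NDUFB9 (0.00), NDUFV3 (-0.01) and NDUFB4 (-0.06) lay between these extremes. NDUFA4, first assigned to complex I and in mammals now counted with complex IV, was at -0.07.

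Both measured genes of complex II, which also serves the citrate cycle as succinate dehydrogenase, were near 0. SDHA, the flavoprotein that oxidises succinate, had ratios from -1.78 to 1.60 and an effect of -0.01 (SE 0.139, adjusted p = 0.981). SDHD, a membrane anchor, had ratios from -0.73 to 0.71 and an effect of -0.03 (SE 0.057, adjusted p = 0.88). The arrays were split for both, with HG above LG on 10 of 24 for SDHA and on 13 of 24 for SDHD. CYCS, cytochrome c itself, had ratios from -0.85 to 1.11 and an effect of 0.06 (SE 0.079, adjusted p = 0.821).

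Complex IV, cytochrome c oxidase, stayed close to 0 in all 5 genes. COX7A2L, known in mammals as a factor that joins complexes III and IV into supercomplexes, had ratios from -0.46 to 0.44 with a median of 0.09 and an effect of 0.05 (SE 0.05, adjusted p = 0.721). Its coefficients stayed between 0.01 and 0.11 over the 6 ages. The study chose it as a PCR reference partly for its small variation on these arrays, so its small difference here is not independent evidence on that use. COX4I1, a regulatory subunit, had ratios from -1.25 to 0.45 and the lowest effect of the complex (-0.01, SE 0.052, adjusted p = 0.966). The accessory subunits COX6C, COX6A1 and COX7C lay between these 2 genes, at 0.04, 0.03 and -0.00. All 5 complex IV genes had a 95% interval within 0.25 of 0, which is an array ratio of less than 1.19-fold in either direction.

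Complex V had 6 genes above 0 and 4 below, with a median of 0.06 and no call. ATP5H, a subunit of the outer stalk, had the highest effect (0.17, SE 0.086, adjusted p = 0.46), with ratios from -0.91 to 1.93. ATP5O, the stalk subunit that confers oligomycin sensitivity, had the lowest (-0.11, SE 0.093, adjusted p = 0.695), with ratios from -1.60 to 0.62. For neither did the arrays keep to a single side of 0. The catalytic head was represented by ATP5B, its beta subunit, at -0.00 (SE 0.055), and by the alpha subunit genes ATP5F1AZ at 0.05 (SE 0.043) and ATP5F1AW at -0.02 (SE 0.082). The last is a copy on the W chromosome, which cockerels do not carry; it shares sequence with the copy on Z, and what its spot measured is uncertain. ATP5C1, the rotor shaft, ATP5PB, a stalk subunit, and the membrane subunits ATP5I and ATP5J2 were between 0.06 and 0.13, and ATP5G1, which encodes the ring through which protons pass, was at -0.04. The assembly factors of complex I were at 0.18 for NDUFAF2 (SE 0.144) and -0.02 for NDUFAF1 (SE 0.044).

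Over the whole list, 27 of 44 genes (61.4%) were above 0 with a median of 0.04, against 57.3% of all genes with a median of 0.02. Without UQCRB 26 of 43 were above 0, and the median was again 0.04. Where the arrays were not centred, 35 of the 44 were above 0 with a median of 0.07, and 0.04 was then the median of all genes. Under the 12 alternative settings that kept every array and the reported setting, 24 of the 44 had an estimate of the same sign throughout, 18 of them positive. NDUFC2 and ATP5J2, measured on 23 arrays, had no estimate with probes measured on all 24 arrays, so they could not be among the 24. No such count was made over all genes. The 95% interval lay within 0.25 of 0 for 29 of the 44, against 60.4% of all genes. For these 29 an array ratio of 1.19-fold or more lay outside the interval. These intervals bound the ratio on the array, and its relation to the size of the RNA difference was not tested here. Wider intervals, apart from UQCRB, were those of NDUFA5, NDUFA11, NDUFB6, NDUFS3, NDUFV3, SDHA, UQCRQ, UQCRHL, ATP5C1, ATP5H, ATP5I, ATP5J2, ATP5O and NDUFAF2. For these an array ratio of 1.19-fold lay within the interval. UQCRB, NDUFA2 and COX7A2L were positive at all 6 ages, as were 4.88% of all genes, and no member was negative at all 6, as were 3.59%.

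The dye coefficient, which is the shift of the HG over LG ratio when HG is in red, was larger in size than the genotype effect in 37 of 44 genes (84.1%, against 74.5% of all genes) and ran from -0.53 to 0.50. In 31 of the 44 the median ratio had opposite signs in the 2 orientations. ATP5H, for example, had a median of -0.44 over the arrays with HG in red and 0.66 over those with LG in red, and NDUFS3 had 0.39 with HG in red and -0.69 with LG in red. NDUFB2, NDUFB4 and NDUFB5, all accessory subunits of complex I, were below 0 on all 12 arrays with HG in red, and on 11, 10 and 9 of the 12 with LG in red they were above 0. Because each age held 2 arrays of each orientation, a constant dye shift cancels in the effects given here, but the ratios of single arrays carry it.

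**Figure D3:**
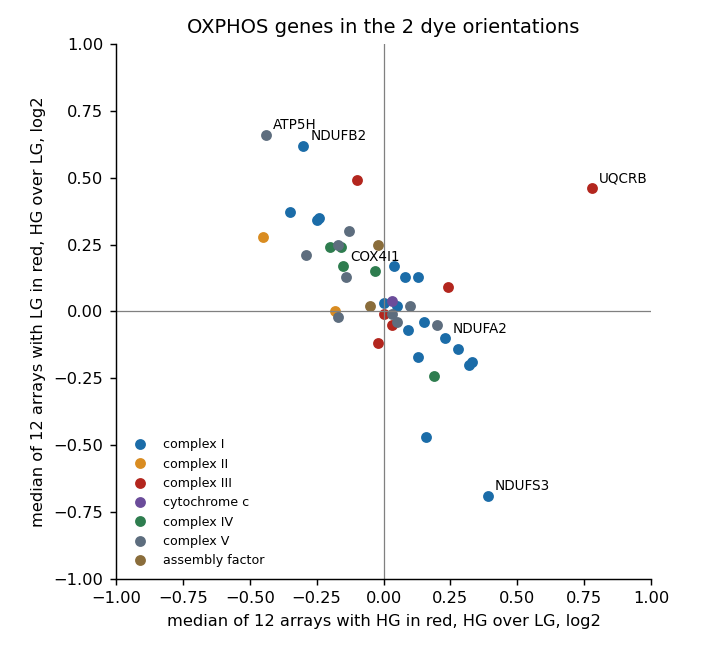
Median log2 ratio of HG over LG of each gene over the 12 arrays with HG in red (horizontal axis) and over the 12 with LG in red (vertical axis), coloured by complex. Most genes fall along a line of opposite signs, and UQCRB lies apart at 0.78 and 0.46.

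Spots of the same gene often differed. Of the 11 genes with more than 1 spot, 5 had spots whose effects differed in sign: ATP5B, ATP5G1, COX7A2L, NDUFV1 and SDHD. The 4 spots of SDHD ranged from -0.27 to 0.14, and the pair of them from the same clone had ratios that correlated at 0.05 over the arrays. For UQCRC2 the pair from the same clone correlated at 0.09, and for COX7A2L the correlations among 3 spots ran from -0.49 to 0.22. ATP5G1 had 2 spots at 0.09 and 0.07 and a noisy spot at -0.28, with a residual SD of 0.93.

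By age, the question was whether a difference between the lines appeared at some stage of growth. Beside UQCRB at 7 wk no gene of the list was called at any age in limma's test, where the share of all genes called was 0% at 1 and 3 wk, 0.372% at 5 wk, 0.226% at 7 wk, 0.0323% at 9 wk and 0.0647% at 11 wk. All 23 genes called at 5 wk were lower in HG (1 gene was called without array 1 of 5 wk), and where arrays were scaled to the same spread 10 were higher and 58 lower. At an unadjusted p under 0.05 the list had 1, 3, 5, 2, 3 and 3 genes from 1 to 11 wk, and over all genes the shares from 1 to 11 wk were 6.76%, 3.28%, 7.29%, 7.1%, 7.47% and 6.19%. Beside UQCRB these were COX4I1 (-0.29) and ATP5G1 (-0.42) at 3 wk, ATP5H (0.45), ATP5J2 (0.83), ATP5O (-0.71) and NDUFA11 (-0.92) at 5 wk, and NDUFS7 (0.19) at 7 wk. At 9 wk they were NDUFAF2 (0.92) and COX7C (-0.34), and at 11 wk NDUFS7 (0.19), NDUFB4 (-0.43) and NDUFV2 (-0.70).

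In several of these 1 or 2 arrays carried the mean. ATP5J2 at 5 wk had ratios of 0.45, -0.36, 0.20 and 3.02, so that array 4 set its mean. NDUFA11, an accessory subunit of the membrane arm, had -1.26, -0.15, -2.42 and 0.15 at 5 wk, low on both arrays with LG in red and near 0 on those with HG in red. Its adjusted p was 0.241, and without array 4 of 5 wk it was called (-1.26, adjusted p = 0.0441). NDUFAF2 at 9 wk had 2.16, 0.20, 1.26 and 0.04, again split by orientation. ATP5O at 5 wk had -1.60, -0.37, -0.19 and -0.67, with HG lower on all 4 arrays, and its adjusted p was 0.319. The 3 wk values of COX4I1 and ATP5G1 include array 4 of 3 wk. That array had the fewest measured spots of all arrays (17380) and the lowest array weight (0.431). ATP5G1 also includes its noisy spot, which fell to -4.55 on a single array.

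NDUFV2, a core subunit with an iron-sulfur cluster, gave the largest interaction of genotype and age in the list. Its coefficients were 0.20, -0.00, 0.26, 0.18, -0.13 and -0.70 from 1 to 11 wk (SE 0.17 each), and at 11 wk its ratios were -0.46, -0.36, -1.53 and -0.45, with HG lower on all 4 arrays (adjusted p = 0.256 at that age). The interaction reached F = 4.39 (adjusted p = 0.819, unadjusted p = 0.00789, n = 24 arrays), and the linear trend -0.071 per wk (adjusted p = 0.75, unadjusted p = 0.00244). NDUFA11 came next with F = 3.88 (adjusted p = 0.819, unadjusted p = 0.0136, n = 24 arrays). No gene of the list was called for the interaction in limma's test, where 0.0323% of all genes were called, and 2 of 44 had an unadjusted p under 0.05 against 4.8% of all genes. None was called for the linear trend, where 0% of all genes were called; NDUFV2 and NDUFAF2 (0.089 per wk) had an unadjusted p under 0.05, against 4.96% of all genes.

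The change of the genotype effect from 1 to 5 wk was called for no member, where 0.113% of all genes were called, all of them negative. ATP5J2 was the only member with an unadjusted p under 0.05 (1.10, unadjusted p = 0.0462, n = 23 arrays), against 3.98% of all genes. The change was above 0 for 31 of 44 members (70.5%) with a median of 0.07, against 53.5% and 0.02 over all genes. At 5 wk 35 of 44 members (79.5%) were above 0 with a median of 0.09, against 59.9% and 0.03 over all genes. Above 0 at 5 wk were 12 of 18 genes in complex I, 5 of 6 in complex III, 5 of 5 in complex IV and 9 of 10 in complex V. In complex V it was 9 of 10 at 7 wk as well. In complex IV it was 5 of 5 at 7 and 11 wk too, and 1 of 5 at 3 and 9 wk. At 1 and 3 wk 22 and 21 of 44 were above 0, and from 7 to 11 wk 31, 28 and 25. The 5 wk count was 28 of 44 with a median of 0.03 where the arrays were not centred, and -0.03 was then the median of all genes. Without centring the counts from 1 to 11 wk were 30, 36, 28, 25, 35 and 27, so that of 5 wk was not the highest. Members share the 4 arrays of an age and are not replicates: at 5 wk the median over members was -0.10 to 0.19 on single arrays and above 0 on 3 of 4.

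Some other lists also leaned to a single side of 0 at 5 wk by their counts, and others did not. Of 22 carriers and other genes beside the chain 18 were above 0 (81.8%, median 0.08), against 59.9% of all genes. Their median was -0.03 to 0.28 on single arrays and above 0 on 2 of 4. Of 33 mitochondrial ribosomal genes 23 were above 0 (69.7%, median 0.06), with single arrays at 0.00 to 0.10 and 4 of 4 above 0. Above 0 were 4 of 9 citrate cycle genes (median -0.00), 4 of 11 regulators of mitochondrial biogenesis (-0.02), 5 of 11 leukocyte markers (-0.00) and 4 of 4 erythrocyte markers (0.12). Of 21 hepatocyte markers 18 were below 0 (median -0.43, single arrays -1.66 to -0.04), and of 12 adipocyte markers 7 (median -0.12, single arrays -0.37 to 0.00), where the median over all genes was 0.03. Of 15 muscle markers 7 were above 0 (median -0.01). From 1 to 5 wk the median change of the adipocyte markers was -0.39. Their part in the 5 wk count of OXPHOS genes was not tested.

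**Figure D4:**
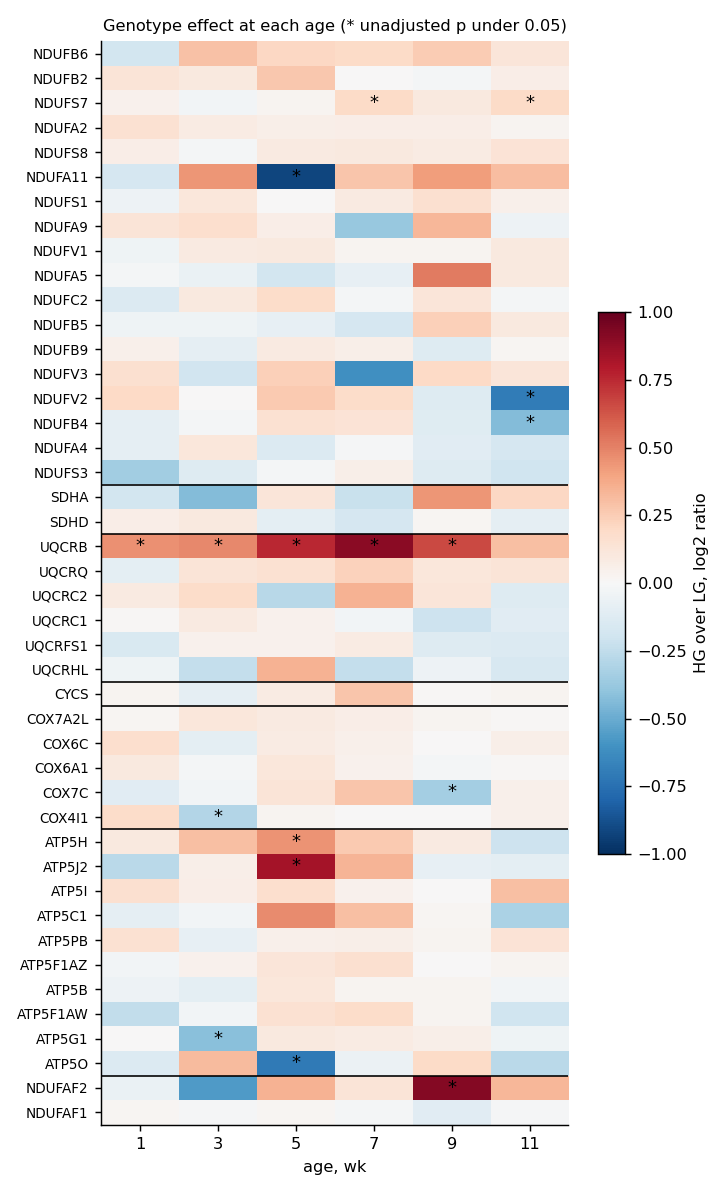
Genotype effect of each gene at each age in wk as the log2 ratio of HG over LG (colour, from blue at -1 to red at 1), with an asterisk where the unadjusted p was under 0.05. UQCRB is red at all 6 ages and marked at all but 11 wk. Cells marked in other genes include NDUFA11 at 5 wk (-0.92), ATP5H, ATP5J2 and ATP5O at 5 wk, and NDUFV2 at 11 wk (-0.70).

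No complex kept to a single side of 0 on all arrays. The median over the 18 complex I genes ran from -0.17 to 0.22 on single arrays and was above 0 on 13 of 24, that of complex IV ran from -0.33 to 0.42 (16 of 24) and that of complex V from -0.49 to 0.52 (14 of 24). Averaged over 24 arrays these medians were 0.03 ± 0.11, 0.05 ± 0.18 and 0.01 ± 0.24 (SD). The median of complex III was above 0 on 19 of 24 arrays (0.10 ± 0.17), and without UQCRB on 12 of 24 (-0.00 ± 0.18). These SDs describe the spread of single arrays and not the precision of a mean. The medians carry the dye shift, so this spread holds dye orientation as well as birds, and the parts were not separated. For complex IV at 9 wk, arrays 1 to 4 were at 0.24, -0.169, 0.291 and -0.327, split by orientation. At 1 wk they were at 0.124, 0.213, 0.053 and 0.011, without such a split. Residual correlations between members, after age and dye, had a median of 0.03 over 861 gene pairs, against -0.001 over all pairs of genes, and of 0.02 within complex I, 0.106 within complex IV and 0.115 within complex V. The closest pair was COX6C and ATP5PB at 0.94 over 24 arrays. These correlations describe arrays that share dye and place effects and carry no test.

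**Figure D5:**
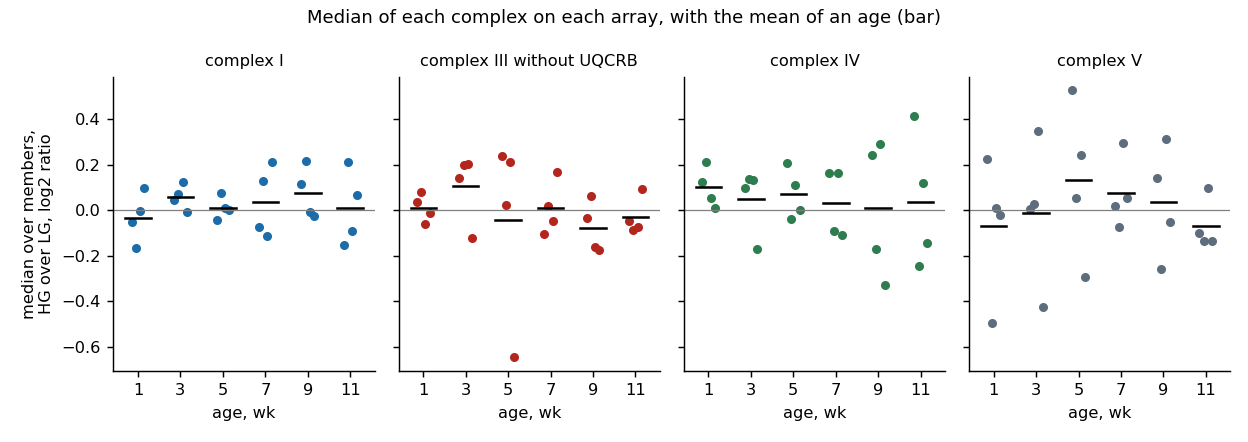
Median log2 ratio of HG over LG over the genes of complex I, of complex III without UQCRB, of complex IV and of complex V on each array (points) by age in wk, with a bar for the mean of an age. Points lie on both sides of 0 in each panel, from -0.65 to 0.52, and carry the dye shift.

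Among genes that build, regulate or feed the chain there was 1 call, where 2.04% of all genes were called. Of 33 measured mitochondrial ribosomal protein genes 19 were above 0 (median 0.02). MRPS15, of the small subunit, was called (0.33, SE 0.08, adjusted p = 0.0257), but not without array 2 of 11 wk (0.32, adjusted p = 0.0511) or with no dye coefficient (adjusted p = 0.172). The highest of the 33 was MRPL27 (0.41, SE 0.15, adjusted p = 0.22) and the lowest MRPL39 (-0.15), and neither was called. Of 19 measured assembly factors of the 5 complexes none was called. This list overlaps the 44 genes, and NDUFAF2, for example, is in both. The highest was CMC1 at 0.23 (SE 0.17, adjusted p = 0.649). The lowest was COA5, a complex IV assembly factor, at -0.30 (SE 0.08, adjusted p = 0.0728), which was called without array 4 of 5 wk (-0.33, adjusted p = 0.0411) or array 1 of 9 wk (-0.34, adjusted p = 0.0235). None was called of 11 regulators of mitochondrial biogenesis, from PPARGC1B (-0.15) to GABPA (0.08). Nor was any of 22 carriers and other genes beside the chain, from VDAC1 (-0.20) to COQ5 (0.17). The 9 citrate cycle genes, from FH (-0.26) to IDH3A (0.10), had no call either. An unadjusted p under 0.05 was reached by 12.2% of all genes. It was reached by 2 of 33 mitochondrial ribosomal genes, 2 of 19 assembly factors and 0 of 11 regulators. Of the 22 genes beside the chain 3 reached it, and of the 9 citrate cycle genes 0.

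Markers of other cell types were looked at because muscle is rich in mitochondria. Over all genes 57.3% were above 0, with a median of 0.02, and 2.04% were called. Of 15 muscle markers 10 were above 0 (median 0.06, medians of single arrays -0.18 to 0.34) and CASQ2 was called (0.24). Of 21 hepatocyte markers 18 were below 0 (median -0.19, single arrays -1.66 to 0.78) and APOA1 was called (-0.25). Of 11 leukocyte markers 4 were above 0 (median -0.07, single arrays -0.46 to 0.39) and of 4 erythrocyte markers 3 (median 0.03, -0.37 to 0.29), with no call in either. Of 12 adipocyte markers 8 were above 0 (median 0.08, -0.37 to 0.62), with SCD (1.14), FASN (0.37) and DGAT2 (0.33) called higher and PNPLA2 (-0.76) lower. The part of these cell types in the UQCRB difference was not tested.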

How the data were processed

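The deposited values were log2 ratios of the 2 dyes per spot, which the authors took with GenePix Pro after removing poor spots by hand. The LOWESS normalization that the study describes is not in them. Missing ratios (4.38%) and ratios at the software's ceiling (0.48%) were left out, arrays were centred on their medians (-0.336 to 0.32 as deposited) and turned to HG over LG, and 17380 to 18529 of 19200 spots per array remained. The last 2 numbers of the annotation's spot identifiers stood in exchanged order against the value table and were exchanged back, after which annotated spots were missing on a mean of 0.621 arrays and spots without a name on 1.84. Probes measured on at least 3 arrays of each age were averaged per symbol. limma 3.58.1 in R 4.3.3 fitted 6 age coefficients and a dye coefficient, with Benjamini-Hochberg adjustment and a threshold of 0.05, and was checked on simulated data. Alternatives changed the centring, scaling, dye term, filters, probe rule, array weights, variance moderation and replicate block, or left out an array. Intensities were not used, so precision rests on the number of arrays. The genes and lists were chosen with earlier results of these data known. Named in full were genes called in any comparison, the highest and lowest gene of each complex, CYCS and COX7A2L, and those with an unadjusted p under 0.05 were added after their values were seen. From the other lists, called genes and the extremes were named.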

Additional observations from a re-analysis of the deposited data

Results flagged for a closer look

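In 4 of the 102 sets of 4 arrays examined, a single array stood far from the other 3. The limit used is passed in about 1 in 20 sets of independent, normally distributed values. These sets carry the dye shift and share arrays, so that share need not hold for them. NDUFB6 at 1 wk was 1.21 on array 3, against -0.77 to -0.44 on the other arrays. SDHA at 1 wk was 0.30 on array 1, against -0.40 to -0.29. The median of complex IV at 3 wk was -0.17 on array 4, against 0.10 to 0.14, and that of complex V at 11 wk was 0.10 on array 3, against -0.14 to -0.10.

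In 3 of the 44 genes all arrays of 1 age lay below 0 and all arrays of another age above it. This was not counted over all genes, so whether 3 exceeds the usual share is not known. NDUFA11 was at -0.17 at 1 wk and between 0.28 and 0.44 at 3, 7 and 9 wk. ATP5C1 was at -0.32 at 11 wk and 0.47 at 5 wk, and ATP5O at -0.71 at 5 wk and 0.32 at 3 wk. The difference between those particular ages was not tested, and the interaction over the 6 ages was not called for NDUFA11, ATP5C1 or ATP5O (adjusted p = 0.819, 1 and 1).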

How the results depend on the processing

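UQCRB over the 6 ages was called under all 12 alternatives that kept every array and under each of the 24 that left out an array (0.56 to 0.63, adjusted p 1.33e-05 to 0.000163). Of the 12, 3 were chosen after seeing the data: they removed block medians, removed the mean of surrounding spots or fitted a dye coefficient at each age, and gave 0.52 to 0.59. At 5 wk the count of OXPHOS genes called was 1 in place of 0 with arrays scaled to the same spread (UQCRB, 0.90, adjusted p = 0.00747), with probes measured on all 24 arrays (UQCRB, 0.75, adjusted p = 0.0493), with array weights (UQCRB, 0.74, adjusted p = 0.0104) and with a dye coefficient at each age (NDUFA11, -0.92, adjusted p = 0.0481). Without 1 array it was 0 to 2, with 2 (UQCRB and NDUFA11) without array 4 of 5 wk. At 7 wk it was 0 in place of 1 with block medians removed (UQCRB, 0.80, adjusted p = 0.0589) or the mean of surrounding spots removed (UQCRB, 0.75, adjusted p = 0.116), and 0 to 1 without 1 array. The cause was not tested. Of 1115 recomputed single-gene values 34 changed sign, none of them called, and 20 changed side of the threshold.

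The count over all 6184 genes was 126, between 54 with no dye coefficient and 214 with a dye coefficient at each age. With every array kept it was 23 at 5 wk (18 to 68), 14 at 7 wk (4 to 81), 2 at 9 wk (0 to 9), 4 at 11 wk (2 to 8), and 7 for the change from 1 to 5 wk (3 to 20). Without 1 array these counts were 95 to 152 over the 6 ages, 1 to 42 at 5 wk, 0 to 39 at 7 wk, 1 to 18 at 9 wk, 1 to 7 at 11 wk and 5 to 17 for that change, with 1 at 5 wk without array 1 of 5 wk and 0 at 7 wk without array 2, 3 or 4 of 7 wk.

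Replicate numbers share a dye orientation and nothing else that the labels state. With the dye removed, arrays of the same number at different ages had mean correlations of -0.082 to -0.044. With the replicate block 1 OXPHOS gene, UQCRB, was called over the 6 ages.

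Results rest on 24 arrays and, for UQCRB, on a single spot, and spots of the same gene agreed little. Intensities were not used, so signal over background is not known here.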
